A study of Mus musculus with 8 samples.

Results

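Of the 56691 rows of the table, 10 were the genes described here, chosen by symbol for serotonin synthesis, vesicle loading and breakdown (Tph1, Ddc, Slc18a1, Slc18a2, Maoa, Maob) and for the dense-core granules of endocrine cells (Ptprn2, Scg5, Chga, Chgb). All 10 symbols were found, each in 1 row. The genes were chosen with their differences between the groups already known, so those differences are given as a description, without p-values. Where they are counted as passing the threshold used for all genes, the count only places them beside the share over the whole table. The samples were 8 bulk RNA-seq libraries from mouse organoids, 3-dimensional cultures grown from the epithelium of the hindstomach, the glandular part of the stomach, at embryonic day 18.5. In the Ctrl group, 4 cultures had the genotype Shh-Cre, and in the YAP5SA group 4 cultures had the genotype Shh-Cre;YAP5SA. All 8 thus carried the Shh-Cre allele, in which Shh sequences drive Cre recombinase, and all spent 5 days in growth medium and then 7 days in differentiation medium. YAP5SA is an active form of YAP, the coactivator that the Hippo kinases hold in check. The labels name neither embryos, litters nor culture days, so replicates may share a source and their spread may be technical.

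Serotonin is made from tryptophan by a hydroxylase, TPH1 outside the nervous system, and then by the decarboxylase DDC. The vesicular monoamine transporters VMAT1 (Slc18a1) and VMAT2 (Slc18a2) load it into secretory vesicles, and the monoamine oxidases MAO-A and MAO-B of the outer mitochondrial membrane break it down. In the gut most serotonin comes from enterochromaffin cells, which are enteroendocrine cells that store amines in granules beside chromogranins, while histamine-storing cells of the stomach use VMAT2.

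Total counts were 17387372 to 25841256 per library, and values are CPM, reads of a gene scaled to a common library total after TMM adjustment, unless stated. Over all genes, 13812 passed the filter on low counts and 8907 of these differed at an adjusted p under 0.05 in the edgeR quasi-likelihood test (called, below), which is 64.5%. Of the calls 4577 were higher and 4330 lower in YAP5SA, and scaling by library size alone gave 5742 and 3201, because it moved the median log2 fold change of all genes from 0.02 to 0.19. The groups also differed in sex-linked transcripts: Xist had 8436 to 12237 counts in the Ctrl and 0 to 8 in the YAP5SA libraries, while the Y-linked genes Ddx3y, Eif2s3y, Kdm5d and Uty were at 0 counts throughout Ctrl and at 880 to 3854 throughout YAP5SA. The contributions of genotype and of sex cannot be told apart in any value below. Yap1, whose row may hold transgene reads, averaged 118 CPM over the Ctrl and 140 CPM over the YAP5SA libraries (log2 fold change 0.25, SE 0.08), and it does not check the labels, since the labels do not say how transgene reads were counted.

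The 10 genes did not move as a block. Tph1, Maoa, Slc18a2 and Scg5 were higher in YAP5SA, Ddc, Slc18a1, Maob and Ptprn2 were lower, and Chga and Chgb were at a few counts in either group. For each of those first 8 genes the values of the groups did not overlap. The filter was passed by 7 genes, of which Tph1 passed through the YAP5SA libraries alone, Maob through the Ctrl libraries alone and Ddc through the 4 Ctrl libraries and 1 YAP5SA library. Of those 7, 3 were called higher and 4 lower, 6 differed by at least 2-fold and 5 by at least 8-fold. Over all genes tested 25.5% were called at 2-fold or more and 4.69% at 8-fold or more. Of all genes tested 64.5% were called, 33.1% higher and 31.3% lower, and the libraries of the groups did not overlap for 58.7%; nothing is read from the counts for the chosen genes beside these shares. Scg5, Chga and Chgb did not pass and are given as counts. In bulk RNA, fewer cells that make a transcript and less transcript per cell cannot be told apart.

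**Figure D1:**
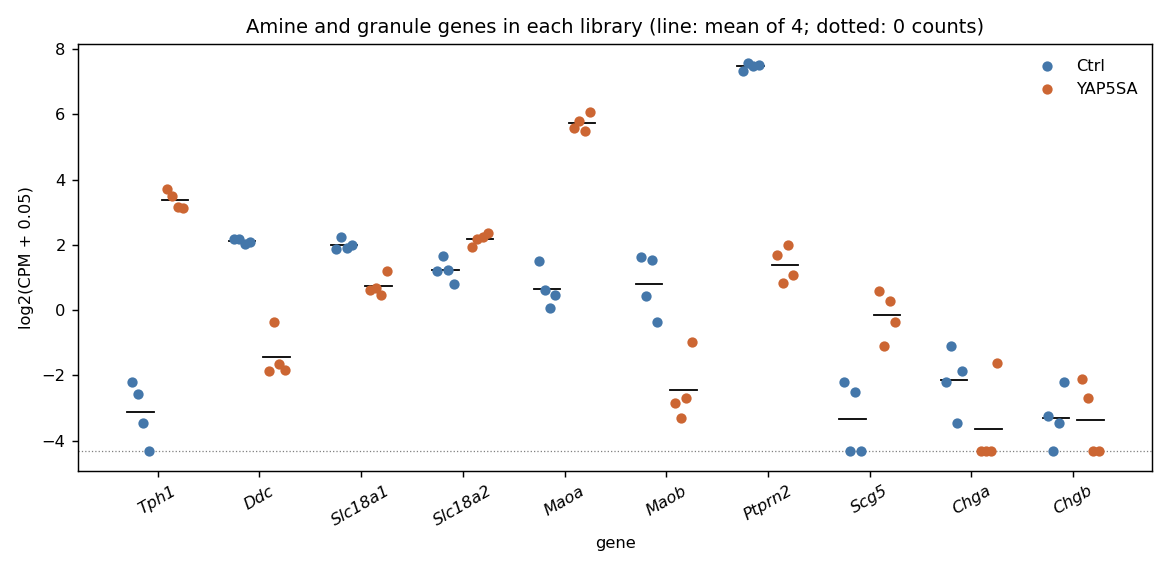
Level of each of the 10 genes in each of the 8 libraries, as log2(CPM + 0.05) on the y axis, with Ctrl in blue, YAP5SA in orange and a line at the mean of 4 libraries. Ptprn2 is the highest of the genes in every Ctrl library and Maoa the highest in every YAP5SA library, while Chga and Chgb lie at or near 0 counts in both groups.

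The upstream sequence is shown for Tph1, Maoa and Ptprn2, which had the steepest differences of the tested genes, and for Scg5, which held the motif. YAP acts on DNA through the TEAD factors, whose core motif GGAATG was searched on both strands (CATTCC on the other). Sequences are RefSeq's, build GRCm38.p6, the 250 bases before a transcript start, and capitals mark the motif. Entries covered 8 of the 10 genes in 10 windows, all but Slc18a1 and Maob. The motif stood in 2 of the 10 windows (20%), against 12.6% of 32851 windows of the same length, and these letters are a description and not a shown binding site.
Tph1, chr7:46672538-46672787, minus strand: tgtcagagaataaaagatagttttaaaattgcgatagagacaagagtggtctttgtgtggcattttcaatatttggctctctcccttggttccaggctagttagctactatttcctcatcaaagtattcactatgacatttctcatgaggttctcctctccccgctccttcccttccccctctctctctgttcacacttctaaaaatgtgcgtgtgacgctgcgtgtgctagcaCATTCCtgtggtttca
Scg5, chr2:113829092-113829341, minus strand: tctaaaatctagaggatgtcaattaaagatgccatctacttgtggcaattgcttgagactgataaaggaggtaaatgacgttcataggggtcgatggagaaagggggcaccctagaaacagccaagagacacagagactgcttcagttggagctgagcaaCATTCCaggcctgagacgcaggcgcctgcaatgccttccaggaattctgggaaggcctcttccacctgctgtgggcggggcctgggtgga
Maoa, chrX:16619448-16619697, plus strand: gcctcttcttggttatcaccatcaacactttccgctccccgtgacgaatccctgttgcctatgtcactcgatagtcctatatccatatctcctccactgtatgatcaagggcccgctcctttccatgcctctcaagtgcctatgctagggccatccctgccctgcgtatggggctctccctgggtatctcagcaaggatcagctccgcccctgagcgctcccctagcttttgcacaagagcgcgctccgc
Ptprn2, chr12:116485470-116485719, plus strand: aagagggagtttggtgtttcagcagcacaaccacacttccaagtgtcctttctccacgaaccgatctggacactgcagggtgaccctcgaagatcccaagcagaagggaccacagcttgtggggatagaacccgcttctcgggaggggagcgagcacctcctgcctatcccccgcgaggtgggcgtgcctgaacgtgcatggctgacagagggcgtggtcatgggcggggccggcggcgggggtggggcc
In the Tph1 window the match begins 16 bases before the start, and in the Scg5 window 90 bases before it. The other Tph1 window, at a start inside the gene, had no match, nor had those of Maoa, Ptprn2, Ddc, Slc18a2, Chga and Chgb.

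Tph1, which catalyses the first and rate-limiting step of serotonin synthesis, was nearly missing from Ctrl and present in every YAP5SA library. The Ctrl libraries had 3, 2, 1 and 0 counts, and the YAP5SA libraries had 288, 216, 166 and 192. Thus the highest Ctrl library, at 0.169 CPM, lay far under the lowest YAP5SA library, at 8.75 CPM. Means were 0.0823 ± 0.0758 and 10.5 ± 2.08 CPM (SD, n = 4 each), and the ratio of counts per total was 152 (95% counting interval 69.3 to 414). The fitted log2 fold change was 6.95 (SE 0.37), rank 40 from the top of the 13812 genes tested. Its neighbours on chromosome 7, Sergef and Saal1, were at 0.47 (SE 0.16, edgeR adjusted p = 0.0184) and 0.61 (SE 0.14, edgeR adjusted p = 0.00148).

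Ddc, which turns the product of TPH1 into serotonin and also makes dopamine from L-DOPA, went the other way. It had 80, 76, 96 and 76 counts in the Ctrl libraries and 5, 14, 5 and 5 in the YAP5SA libraries. The Ctrl libraries were close together and YAP5SA replicate 2 stood above the other YAP5SA libraries, but still below all of Ctrl. Means were 4.31 ± 0.242 and 0.362 ± 0.244 CPM, a log2 fold change of -3.57 (SE 0.34), or 11.9-fold lower. Both genes beside Ddc rose, Fignl1 at 1.17 (SE 0.28, edgeR adjusted p = 0.00219) and the growth factor receptor adaptor gene Grb10 at 2.90 (SE 0.33, edgeR adjusted p = 3.28e-06).

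The steps before and after in the same pathway can be set against each other within a library, where scaling plays no part. The log2 ratio of Tph1 to Ddc counts, with 0.5 added to each, was -4.52, -4.94, -6.01 and -7.26 in the Ctrl libraries and 5.71, 3.90, 4.92 and 5.13 in the YAP5SA libraries. Ddc was thus the more counted gene in every Ctrl library and Tph1 in every YAP5SA library. The transcript of the first enzyme was high where that of the second was low, and no group had high counts of both.

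The vesicular transporters also differed in opposite directions. Slc18a1, the VMAT1 gene of enterochromaffin and chromaffin cells, had 64, 79, 88 and 70 counts in the Ctrl and 33, 30, 25 and 49 in the YAP5SA libraries. Slc18a2, the VMAT2 gene of neurons, mast cells and histamine-storing stomach cells, had 40, 53, 55 and 30 counts in the Ctrl and 84, 87, 88 and 112 in the YAP5SA libraries. For neither gene did the groups overlap. Mean Slc18a1 was 3.96 ± 0.492 CPM in the Ctrl group and 1.65 ± 0.397 CPM in the YAP5SA group, with a log2 fold change of -1.25 (SE 0.23). Mean Slc18a2 was 2.34 ± 0.602 CPM and 4.53 ± 0.538 CPM, and its log2 fold change of 0.95 (SE 0.22) was the smallest difference of the 7 tested genes. The log2 ratio of Slc18a2 to Slc18a1 was -0.78 ± 0.29 in Ctrl and 1.46 ± 0.26 in YAP5SA (SD, n = 4 each). It was below 0 in all 4 Ctrl libraries (-1.21 to -0.57) and above 0 in all 4 YAP5SA libraries (1.18 to 1.80).

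Shared reads were checked for these paralogues. The longest identical run between any Slc18a1 and Slc18a2 transcripts of GENCODE M21 was 15 bases, and between Maoa and Maob 35 bases, against reads of 150 bases per end. An antisense gene, Gm29261, overlaps 111 of the 5225 exon bases of Slc18a2, and as the strand setting of the counting is not given in the sources used here, its reads could be mixed with those of Slc18a2. It had 0 counts in Ctrl and 2 in YAP5SA.

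The genes of the breakdown enzymes, which are paralogues, also differed in opposite directions. MAO-A prefers serotonin and noradrenaline, and MAO-B prefers phenylethylamine. Maoa had 49, 25, 24 and 24 counts in the Ctrl libraries against 1043, 1058, 836 and 1465 in the YAP5SA libraries. Maob had 54, 22, 69 and 13 counts in the Ctrl and 2, 1, 2 and 10 in the YAP5SA libraries. Every YAP5SA library was far above Ctrl for Maoa, whereas for Maob the lowest Ctrl library, replicate 4, and the highest YAP5SA library, also replicate 4, were at 13 and 10 counts.

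Maoa went from 1.64 ± 0.771 to 53.4 ± 9.95 CPM, a log2 fold change of 5.05 (SE 0.23) or 33.0-fold higher. Maob went from 1.99 ± 1.15 to 0.176 ± 0.188 CPM, at -3.42 (SE 0.61) or 10.7-fold lower, and at -4.49 without YAP5SA replicate 4. Maob was the most variable of the 7, with a biological coefficient of variation of 0.464, where the median of 500 genes of like level was 0.272. The log2 ratio of Maoa to Maob was -0.15 ± 0.99 in Ctrl and 8.42 ± 0.97 in YAP5SA (SD, n = 4 each).

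These opposite differences came from neighbouring genes. Maoa and Maob lie tail to tail on the X chromosome, 21468 bases apart in RefSeq's GRCm38.p6. Being X-linked, they bear directly on the difference in sex-linked transcripts. Of 448 X-linked genes tested 65% were called, beside 64.5% of all genes tested. Among the X-linked genes 194 were higher and 97 lower, where 4577 and 4330 of all genes were. Their median log2 fold change was 0.24, beside 0.02 over all genes. Maoa was the 4th highest and Maob the 5th lowest of the X-linked genes, and the part of sex in either value cannot be told apart from that of genotype.

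**Figure D2:**
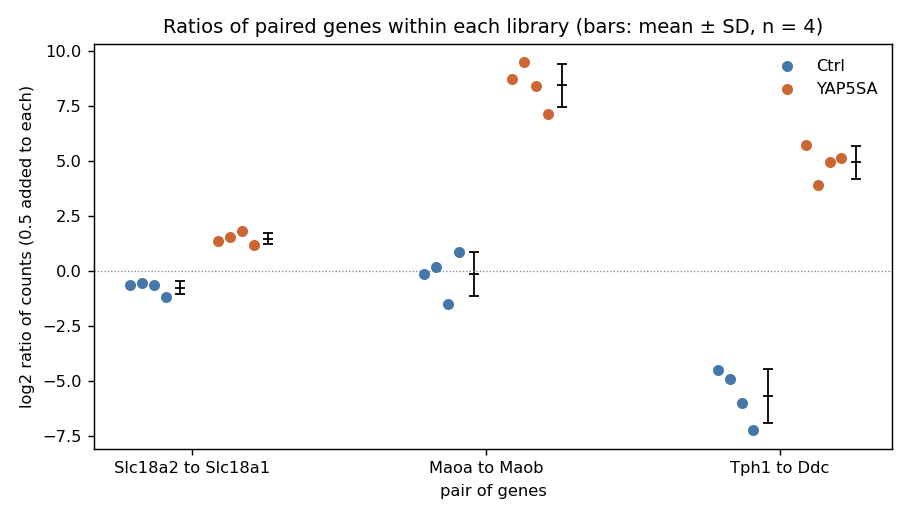
Log2 ratio of the counts of paired genes within each library (y axis, 0.5 added to each count), with Ctrl in blue, YAP5SA in orange and bars for the mean ± SD of 4 libraries. The Tph1 to Ddc ratio passes from -7.26 to -4.52 in Ctrl to 3.90 to 5.71 in YAP5SA. The groups do not overlap for any of the 3 pairs, which the choice of pairs fixes in advance. In each pair a gene higher in YAP5SA is set against a lower gene, and neither gene overlaps between the groups.

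Among the granule genes, Ptprn2 had the most counts by far. It encodes phogrin, a receptor-type tyrosine phosphatase-like protein of dense-core granule membranes that is known as an autoantigen in diabetes. Counts were 2828, 3185, 4260 and 3274 in the Ctrl libraries and 70, 33, 74 and 45 in the YAP5SA libraries. All Ctrl libraries were above 159 CPM and no YAP5SA library passed 3.94 CPM. Means were 177 ± 12.6 and 2.72 ± 1.02 CPM, and the log2 fold change of -6.03 (SE 0.18), or 65.1-fold lower, was 15th from the bottom of all genes tested. Its neighbours on chromosome 12 were at -0.74 (Ncapg2, SE 0.12, edgeR adjusted p = 8.55e-05) and -0.24 (Rapgef5, SE 0.17, edgeR adjusted p = 0.25).

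Scg5, which encodes 7B2, the chaperone of the prohormone convertase PC2, was low throughout and higher in YAP5SA. It had 3, 0, 3 and 0 counts in the Ctrl and 32, 8, 22 and 16 in the YAP5SA libraries. The groups did not overlap, and the ratio of counts per total was 13.7 (95% counting interval 6.02 to 38.5). The gene for its partner, Pcsk2, had 0 counts in all 8 libraries. Arhgap11a, 2400 bases from Scg5, went the other way, at -1.36 (SE 0.10, edgeR adjusted p = 5.75e-08).

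The chromogranins, acidic proteins that fill amine and hormone granules and serve as general endocrine markers, were at the limit of detection. Chga had 3, 7, 1 and 4 counts in the Ctrl libraries and 0, 0, 0 and 6 in the YAP5SA libraries, so that YAP5SA replicate 4 held all counts of its group. The ratio of YAP5SA to Ctrl counts was 0.422 with a 95% counting interval of 0.134 to 1.15, and a difference was not detectable at this depth. Chgb had 1, 0, 1 and 3 counts in the Ctrl and 4, 2, 0 and 0 in the YAP5SA libraries, with a ratio of 1.27 (interval 0.322 to 5.24). For 0 counts the floor of 3 counts is 0.116 to 0.173 CPM per library, here by total counts without TMM adjustment. Such intervals and floors cover counting error only.

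Levels of different genes can be compared per kilobase of exon (union of GENCODE M21 exons). In Ctrl, Ptprn2 stood first at 20.6 ± 1.46 CPM per kilobase (SD, n = 4), followed by Ddc at 0.966 ± 0.0543 and Slc18a1 at 0.734 ± 0.0910. Each of those first 2 lay above the next gene in every library. Maob, however, lay above Ddc in Ctrl replicate 1 (1.09 against 1.01) and in Ctrl replicate 3 (1.03 against 0.896). From Slc18a1 down through Maob, Slc18a2 and Maoa the ranges of neighbours in the order overlapped. Maoa lay above Chga in every library. Ranges also overlapped among Chga, Scg5, Chgb and Tph1, which was last at 0.0133 ± 0.0123.

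In YAP5SA the order was led by Maoa at 12.8 ± 2.39 and Tph1 at 1.70 ± 0.336 CPM per kilobase, each above the next gene in every library. Slc18a2 at 0.867 ± 0.103, Scg5 at 0.6002 ± 0.293, Ptprn2 at 0.316 ± 0.119 and Slc18a1 at 0.306 ± 0.0735 overlapped with their neighbours in the order, and Slc18a1 lay above Ddc in every library. Ddc at 0.0812 ± 0.0548, Maob at 0.0632 ± 0.0673, Chgb and Chga came last and also overlapped with each other. Tph1 thus moved from the lowest to the second highest level of the 10, and Ptprn2 from the highest to the fifth.

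**Figure D3:**
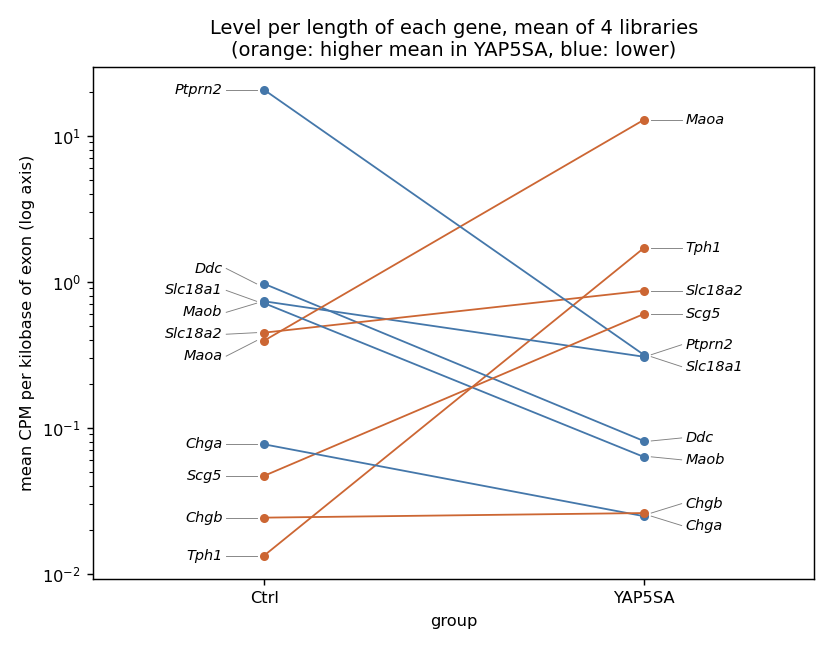
Mean level of each of the 10 genes per kilobase of exon (y axis, log scale) in Ctrl and YAP5SA, 4 libraries each, with orange lines for a higher and blue lines for a lower mean in YAP5SA. Lines for Tph1 and Maoa climb across those of Ptprn2, Ddc and Maob, while Chga and Chgb stay below 0.1 CPM per kilobase.

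The genes with the most similar profile over the 8 libraries were found by the root mean square difference of centred log2 CPM, a measure that the contrast between the groups dominates. A count of 2, scaled to library size, was added before the logarithm, which draws in the differences of genes near 0 counts. Nearest to Tph1 were Hecw2 (0.28), Pik3r6 (0.30) and Cdkn1c (0.31). Casp14 (0.21), Aif1l (0.24) and Klra8 (0.28) were nearest to Maoa, and Skp2 (0.11), Smpd1 (0.13) and Edn1 (0.13) to Slc18a2. Klra8 averaged 0.0141 CPM in Ctrl, and its fitted log2 fold change was 7.21, against 5.05 for Maoa. Nearest to Ptprn2 were Gsdma2 (0.33), Sult1d1 (0.36) and Tm4sf5 (0.46), and to Ddc Sprr2a1 (0.34), Teddm3 (0.35) and Rpp25 (0.35). Macc1 (0.13), Trp53rka (0.14) and St3gal6 (0.15) were nearest to Slc18a1, and St6gal2 (0.47), Oprd1 (0.50) and Thsd1 (0.52) to Maob. No gene was in the nearest 3 of more than 1 of the 7 genes.

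Other genes of the same steps were taken from 9 fixed lists with 128 genes in all, of which 48 were tested. The lists too were chosen with earlier results of these data known, and most genes named are those of smallest p in a list. Their adjusted p-values come from the test over all genes and are not separate support for a list. Tetrahydrobiopterin, the cofactor of TPH1, and vitamin B6, the cofactor of DDC, depend on 11 listed genes, of which 10 were tested. All 10 were called, 7 lower and 3 higher, with a median log2 fold change of -0.66, beside 0.02 and 64.5% called over all genes. With scaling by library size alone 6 were called lower and 3 higher, and the median was -0.49, beside 0.19 over all genes. Gch1, the first enzyme of biopterin synthesis, fell from 95.2 ± 7.83 to 42.1 ± 3.48 CPM (-1.18, SE 0.09). Spr, which makes the last step, was at -0.97 (SE 0.08), and Qdpr, which recycles the cofactor, at -0.71 (SE 0.08). In the other direction, the vitamin B6 kinase gene Pdxk was at 1.31 (SE 0.15). Adjusted p was at most 4.87e-06 for these 4 genes (edgeR).

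None of the 11 other enzymes of amine and transmitter synthesis passed the filter. Hdc, which makes histamine, and Th, Dbh, Asmt and Chat had 0 counts in all 8 libraries. Tph2, the neuronal tryptophan hydroxylase gene, had 10, 21, 18 and 8 counts in the Ctrl and 0, 3, 1 and 1 in the YAP5SA libraries. That is 10.8-fold lower (95% counting interval 4.37 to 34.6), the opposite of Tph1, and it is named after its values were seen.

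Transporters of amines and of aromatic amino acids went both ways, with 2 higher, 2 lower and 3 not called of 7 tested, a median of -0.30 and a mean of 0.33. Beside the 64.5% called over all genes (33.1% higher and 31.3% lower), nothing is read from these counts. Slc18b1, a vesicular polyamine transporter gene related to Slc18a1 and Slc18a2, fell from 22.1 ± 3.03 to 3.88 ± 0.58 CPM (-2.50, SE 0.15, edgeR adjusted p = 4.54e-09). Slc6a14, an amino acid transporter gene, rose by 2.56 (SE 0.31, edgeR adjusted p = 6.94e-06) and Slc3a2, the heavy chain gene of the large neutral amino acid carrier, was at -0.61 (SE 0.10, edgeR adjusted p = 0.000136). Slc6a3, the dopamine transporter gene, had 7, 0, 0 and 0 counts in Ctrl and 20 to 27 in the YAP5SA libraries (3.55, SE 0.73, edgeR adjusted p = 0.000688), and its log2 fold change was 7.53 without Ctrl replicate 1, which holds all Ctrl counts. Slc6a3 passed the filter on low counts through the YAP5SA libraries alone, so nothing is read from its call. The serotonin transporter gene Slc6a4 had 0 counts in every library.

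Of 7 other amine breakdown enzymes tested, 3 were higher, 3 lower and 1 not called, with a median of 0.02. The share called over all genes was 64.5% (33.1% higher and 31.3% lower), and nothing is read from the counts for this list. Among the aldehyde dehydrogenases, a family that takes up the products of monoamine oxidase, Aldh2 fell from 130 ± 4.03 to 43.0 ± 3.77 CPM (-1.59, SE 0.08) and Aldh3a2 from 325 ± 35.6 to 49.7 ± 3.52 CPM (-2.71, SE 0.09). Akr1b3, an aldose reductase gene, was at -1.17 (SE 0.08). Sult1a1, which sulfates phenols and catecholamines, rose from 0.334 ± 0.138 to 9.19 ± 1.47 CPM (4.74, SE 0.27). Adjusted p was at most 2.77e-08 for these 4 genes (edgeR), of which Sult1a1 passed the filter on low counts through the YAP5SA libraries alone. Aldh1b1, another aldehyde dehydrogenase gene, was called higher, with 0 to 20 counts in the Ctrl and 27 to 83 in the YAP5SA libraries, so the family went both ways.

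In the kynurenine route, which competes for tryptophan, 2 of 4 tested genes were lower and 2 not called, with a median of -0.63. Over all genes 64.5% were called and 31.3% were lower, so nothing is read from the count for this route. Kyat1 was at -1.19 (SE 0.15, edgeR adjusted p = 9.74e-06) and Ido1 at -1.79 (SE 0.55, edgeR adjusted p = 0.0107), or -2.76 without YAP5SA replicate 1. Afmid at -0.06 (edgeR adjusted p = 0.866) and Kyat3 at -0.01 (edgeR adjusted p = 0.974) were not called. Of 14 serotonin receptor genes, Htr5b alone was tested, with 3 to 8 counts in the Ctrl and 45 to 68 in the YAP5SA libraries (3.58, SE 0.37, edgeR adjusted p = 1.14e-06), and 6 had 0 counts. Htr5b passed the filter on low counts through the YAP5SA libraries alone, so nothing is read from its call.

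Other granins and prohormone-processing genes were called in all 12 tested, 9 lower and 3 higher, with a median of -0.60, beside 64.5% called over all genes (33.1% higher and 31.3% lower) and a median of 0.02. Scaling by library size alone called 6 lower and 3 higher. Ptprn, the paralogue of Ptprn2 that encodes the granule protein IA-2, fell from 73.0 ± 5.32 to 8.55 ± 0.941 CPM (-3.09, SE 0.10, edgeR adjusted p = 1.39e-11), in the direction of Ptprn2 and by less. Cadps2, which primes dense-core granules for release, had 278 Ctrl counts against 12 in YAP5SA (-4.58, SE 0.37, edgeR adjusted p = 9.36e-08). Its paralogue Cadps was at 13 to 25 counts across Ctrl and at 0 throughout YAP5SA, at least 23.7-fold lower against a floor of 3 counts over the group (18.8-fold at the lower end of the 95% counting interval). The list median was the same with Cadps at that bound, as it must be for a gene that stays at the low end of the list. Both Cadps and Cadps2 are among the 12 called, but they passed the filter on low counts through the Ctrl libraries alone.

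The 3 that rose were Vgf, Pcsk5 and Pcsk6. Vgf, a granin family gene, ranged over 5 to 14 counts in Ctrl and 100 to 163 in the YAP5SA libraries (3.54, SE 0.29, edgeR adjusted p = 1.19e-07). Pcsk6, a convertase gene of the constitutive pathway, went from 64.1 ± 2.51 to 181 ± 15.8 CPM (edgeR adjusted p = 1.21e-09). Scg5 and Vgf were thus higher in YAP5SA, whereas Ptprn2, Ptprn, Cadps and Cadps2 were lower.

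**Figure D4:**
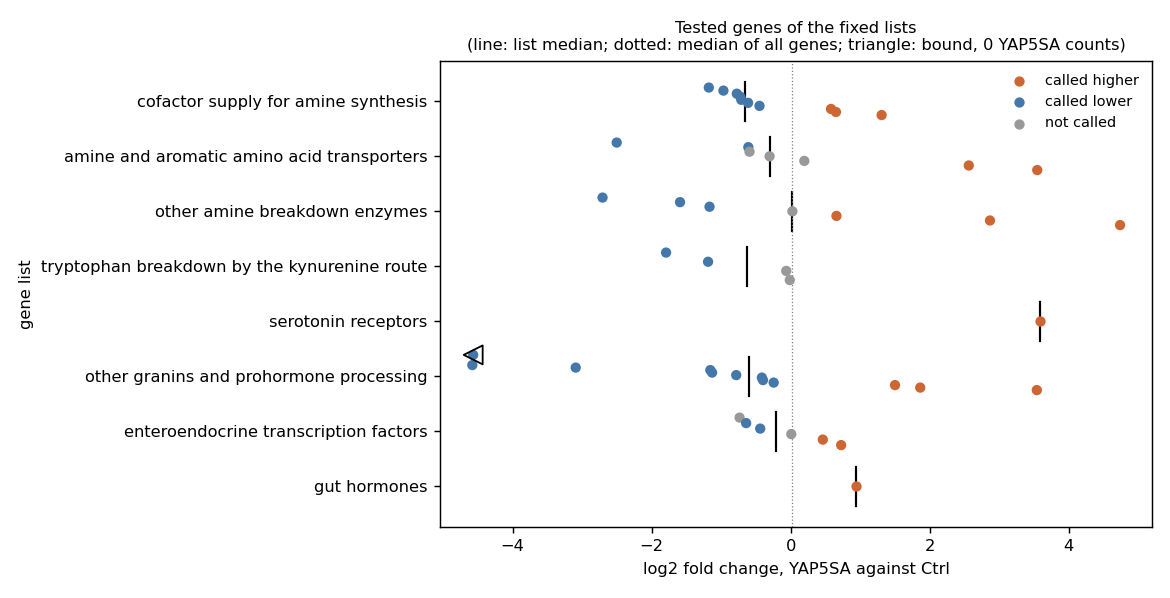
Log2 fold change of YAP5SA against Ctrl (x axis) for the tested genes of each fixed list (y axis), coloured by the edgeR call, with a line at the list median and a dotted line at the median of all genes. The cofactor list has 7 genes lower and 3 higher, the granin and processing list 9 and 3, and the triangle marks Cadps at its bound, as it had 0 YAP5SA counts.

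Genes that define enteroendocrine cells were near 0. Of 21 transcription factor genes of the lineage 9 had 0 counts in all libraries, among them Neurog3, Neurod1, Pax4, Nkx2-2, Fev and Rfx6. Others had counts but did not pass the filter. Isl1 totalled 42 counts in Ctrl and 3 in YAP5SA, and St18 totalled 48 and 3. Totals were 7 and 7 for Pax6, 1 and 7 for Lmx1a, 1 and 0 for Insm1, and 0 and 1 for Lmx1b. Of the 6 tested, 2 were lower, 2 higher and 2 not called, with a median of -0.22, beside 64.5% called over all genes (33.1% higher and 31.3% lower). Those called were Foxa1 at -0.64 (SE 0.08, edgeR adjusted p = 1.32e-05), Foxa2 at -0.44 (SE 0.12, edgeR adjusted p = 0.00572), Sox4 at 0.46 (SE 0.09, edgeR adjusted p = 0.00059) and Rfx3 at 0.73 (SE 0.25, edgeR adjusted p = 0.0202). None of these is restricted to endocrine cells. Rfx3 was no longer called when Ctrl replicate 4 was left out (edgeR adjusted p = 0.0585) or when YAP5SA replicate 3 was (0.0793), nor Foxa2 with library size scaling (edgeR adjusted p = 0.0646). Of 13 hormone genes 7 had 0 counts, Gast and Sst among them. Only Nucb2, which is not restricted to endocrine cells, was tested (0.94, SE 0.10, edgeR adjusted p = 1.66e-06). Ghrl, the ghrelin gene, had 10, 4, 11 and 6 counts in the Ctrl and 1, 0, 2 and 5 in the YAP5SA libraries.

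The summed level of 8 enteroendocrine markers, Chga and Chgb among them, was 0.625 to 0.789 CPM in the Ctrl and 0.104 to 0.501 CPM in the YAP5SA libraries, where Tph1 alone reached 8.75 CPM or more. Mast cells, which also make serotonin and hold Slc18a2, were checked by 13 markers. Fcer1a, Ms4a2, Cpa3, Tpsb2, Tpsab1 and Hdc had 0 counts in all libraries, and the summed level was 23.9 to 34.8 CPM in Ctrl and 4.83 to 5.97 CPM in YAP5SA, mainly from the protease gene Mcpt2. Mcpt2 averaged 26.5 of a mean sum of 29.1 CPM in Ctrl, and 4.66 of 5.33 CPM in YAP5SA. The sum thus mostly follows that gene. The part of mast cells in the differences of Tph1 and Slc18a2 was not tested.

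For neurons and glia the sum of 12 markers was 2.18 to 3.55 CPM in Ctrl and 2.05 to 3.22 CPM in YAP5SA, with Elavl4 and Sox10 at 0. For blood cells and platelets the sum of 9 markers was 9.41 to 18.8 CPM in Ctrl and 68.7 to 76.4 CPM in YAP5SA, mostly from Cd68 and, in YAP5SA, Csf1r (4 to 10 counts in Ctrl, 565 to 784 in YAP5SA), while the pan-leukocyte gene Ptprc had 15 counts in Ctrl and 3 in YAP5SA. The part of these transcripts in the differences of Tph1, Maoa and Slc18a2 was not tested. Sums were at most 1.002 CPM for mesenchyme, 1.80 CPM for endothelium and 0.507 CPM for pancreatic endocrine cells. The labelled epithelium was present, with all 9 markers of gastric epithelium counted in every library, summing to 39359 to 55503 CPM in Ctrl and 12023 to 14746 CPM in YAP5SA. The mucous cell genes Gkn1 (16913 CPM in Ctrl, 1358 CPM in YAP5SA) and Tff1 (10720 and 1192 CPM) made up most of the Ctrl sum. Of the 9 markers 7 were lower, Epcam was higher (296 ± 26.4 and 591 ± 24.0 CPM), and Krt18 was not called (log2 fold change 0.11, edgeR adjusted p = 0.25). Over all genes tested 31.3% were called lower and 33.1% higher.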

How the data were processed

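Bulk RNA was sequenced on an Illumina instrument as read pairs of 150 bases per end, per the labels' protocols. What the authors deposited are raw counts per gene and library, with no normalization. The tools were HISAT2 2.0.1, HTSeq 0.6.1 and cutadapt with build mm9, per the submitters' processing notes. Neither annotation nor strand setting is given in the sources used here. Coordinates printed are RefSeq's, on GRCm38.p6, and not the files'.

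Groups came from the sample titles. Replicates differed by more than sampling noise (chi-square per degree of freedom 4.94 to 37.2). The counts went into edgeR 4.0.16 (R 4.3.3) with filterByExpr (minimum count 10, minimum total 15), TMM scaling and the two-sided quasi-likelihood F test over 13812 genes with Benjamini-Hochberg adjustment and a threshold of 0.05. Each SE was derived from the fold change and its F value. Ratios of counts have exact 95% intervals. Alternatives were DESeq2 1.42.0, limma-voom (limma 3.58.1), other scalings and filters, the replicate block, leaving out 5 sex-linked genes and leaving out each library.

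The 10 genes, the 9 pathway and 8 marker lists and the tests were chosen with earlier results of these data known. Named are the 10 genes, their 3 nearest profiles (predicted genes left out), up to 4 tested genes of each list with the smallest p, and genes that check labels or cell types. Tph2, Aldh1b1, Cadps, Pcsk5, Pcsk2, Slc6a4, Ghrl, the neighbouring genes and the genes at 0 counts were named after their values were seen. So were the enteroendocrine transcription factor genes that did not pass the filter. Protein sequences were not used here.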

Additional observations from a re-analysis of the deposited data

Results flagged for a closer look

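Of 74 sets of 4 libraries checked, 7 had 1 library apart from the other 3 by Dixon's criterion at the 95% level. Chance flags about 1 in 20 sets of normally distributed values, which counts at or near 0 are not. The 7 are therefore not set against that rate. Ddc in YAP5SA replicate 2 was at 0.727 CPM (14 counts) against 0.227 to 0.266 CPM in the other YAP5SA libraries. Maob in YAP5SA replicate 4 was at 0.456 CPM (10 counts) against 0.052 to 0.106 CPM. Chga in YAP5SA replicate 4 was at 0.273 CPM, 6 counts against 0 in the others. Slc6a3 in Ctrl replicate 1 was at 0.394 CPM, 7 counts against 0 in the others. Slc6a14 in YAP5SA replicate 4 was at 23.8 CPM against 11.02 to 13.1 CPM. Slc18b1 in YAP5SA replicate 2 was at 3.01 CPM against 4.10 to 4.22 CPM, and Rfx3 in Ctrl replicate 4 was at 1.62 CPM against 2.96 to 3.16 CPM. YAP5SA replicate 4 thus accounts for 3 of the 7, Maob, Chga and Slc6a14.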

How the results depend on the processing

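For the 7 tested genes among the 10, the 111 log2 fold changes computed under the alternatives were 84.5% to 131% of those reported. As the genes were chosen for these differences, nothing about stability is read from this. The filter at 1 CPM in 4 libraries left Maob untested. Scg5 passed without any 1 Ctrl library or YAP5SA replicate 2, and its log2 fold change with no filter was 3.50; Chga and Chgb had a value with no filter alone (-1.47, SE 1.08, and 0.12, SE 1.31). With 1 added to each count the differences between the groups in mean log2 ratio were 10.03 for Tph1 to Ddc, 8.32 for Maoa to Maob and 2.22 for Slc18a2 to Slc18a1, against 10.60, 8.57 and 2.24. Genes called over the whole table numbered 8299 to 8972 with 1 library left out. Same-numbered libraries deviated from their group means with correlations of 0.05 to 0.28, and replicates 2 and 3 correlated best with each other's number, so no pairing was taken; with the replicate block 9174 genes were called, against 8907 without it.

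Among other synthesis enzymes, none tested as reported, 2 were called with no filter and 0 to 1 with 1 library left out. With no filter 2 gut hormones were called, against 1, and with the filter at 1 CPM 1 gene of the kynurenine route was called, against 2, as fewer genes were tested. Kyat3 and Afmid, not called in any setting, changed sign: Kyat3 was at 0.10 with limma-voom, 0.15 with library size scaling and 0.053 with the replicate block, and -0.20 to 0.34 with 1 library left out; Afmid was at 0.12 with library size scaling and -0.31 to 0.15 with 1 library left out. The cause was not tested. At this depth Chga, Chgb, Scg5 in Ctrl and Tph1 in Ctrl rest on 0 to 7 counts per library.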
